A study of Rattus norvegicus with 12 samples.

Results

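Axon injury and regrowth genes of the rat spiral ganglion are described here: the injury transcription factors Atf3 and Jun, the stress gene Gadd45a, the growth cone gene Gap43, the tubulin Tubb2b, the microtubule-associated kinase Dclk1 and the adhesion molecule Chl1. These 7 genes of the 21829 symbols in the authors' normalized table were chosen by their read counts, which were higher in deafened than in hearing ganglia, so the deafened groups are described for them without a test. All 7 passed the filter on low counts, with 17789 genes tested in all. RNA came from the whole spiral ganglion, a cluster of auditory nerve cell bodies in the cochlea that also holds glia, blood vessels, immune cells and fibroblasts, of Sprague-Dawley rats. The P32 deafened and P60 deafened groups had been given kanamycin, an aminoglycoside antibiotic that kills hair cells, by intraperitoneal injection at 400 mg/kg each day from P8 to P16, and were killed at 32 or 60 days of age. The P32 hearing and P60 hearing groups were uninjected littermates of the same ages. Each of the 4 groups has 3 biological replicates (12 libraries, 15646405 to 43453272 counted reads each). The labels do not say how many rats were pooled in a replicate, so p-values measure the spread between these libraries. Hair cell loss, other actions of the drug and the injections cannot be told apart in this design, and a rise may come from more RNA per cell or from more cells of one type, which bulk RNA cannot tell apart.

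After an axon is cut or loses its target, the neuron's dual leucine zipper kinase (DLK) activates the kinase JNK, which phosphorylates the transcription factor Jun. Jun and Atf3 then act on a set of genes for stress, growth cone and cytoskeletal proteins, and in peripheral neurons this programme precedes both regrowth and, in some cells, death. Schwann cells of injured nerves also induce Jun, Gap43 and Gfap as they turn into repair cells. In the cochlea, spiral ganglion neurons lose their peripheral target when hair cells die and then degenerate slowly.

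The promoters of the genes are shown first, because Jun and Atf3 are DNA-binding factors and the other 5 genes were chosen with them. RefSeq promoter entries on the rat assembly GRCr8, which run from 250 bases before to 50 bases after the start of transcription, were found for 4 of the 7 genes: Gadd45a at chr4:97486750-97487049 (minus strand), Tubb2b at chr17:30952836-30953135 (plus strand), Chl1 at chr4:137847645-137847944 (plus strand) and Dclk1 at chr2:141782634-141782933 (plus strand). They are printed 5′ to 3′ on the gene's strand, with the letters that match a searched motif in capitals.
Gadd45a: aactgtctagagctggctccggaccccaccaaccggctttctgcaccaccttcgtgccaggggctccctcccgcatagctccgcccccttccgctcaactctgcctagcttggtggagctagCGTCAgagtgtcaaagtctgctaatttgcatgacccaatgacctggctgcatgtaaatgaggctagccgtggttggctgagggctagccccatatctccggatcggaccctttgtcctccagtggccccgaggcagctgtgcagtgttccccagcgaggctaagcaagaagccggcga
Tubb2b: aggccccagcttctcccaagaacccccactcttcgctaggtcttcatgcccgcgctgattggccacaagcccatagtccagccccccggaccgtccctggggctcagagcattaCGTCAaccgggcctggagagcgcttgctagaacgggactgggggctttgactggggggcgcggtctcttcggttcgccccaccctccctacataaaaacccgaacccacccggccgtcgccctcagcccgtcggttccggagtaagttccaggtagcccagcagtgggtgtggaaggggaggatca
Dclk1: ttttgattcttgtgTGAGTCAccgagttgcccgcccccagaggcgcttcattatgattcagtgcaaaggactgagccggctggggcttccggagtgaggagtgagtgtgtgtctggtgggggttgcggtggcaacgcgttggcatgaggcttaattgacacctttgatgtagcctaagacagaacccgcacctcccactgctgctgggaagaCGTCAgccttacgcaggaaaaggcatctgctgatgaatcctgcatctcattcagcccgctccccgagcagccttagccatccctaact
Chl1: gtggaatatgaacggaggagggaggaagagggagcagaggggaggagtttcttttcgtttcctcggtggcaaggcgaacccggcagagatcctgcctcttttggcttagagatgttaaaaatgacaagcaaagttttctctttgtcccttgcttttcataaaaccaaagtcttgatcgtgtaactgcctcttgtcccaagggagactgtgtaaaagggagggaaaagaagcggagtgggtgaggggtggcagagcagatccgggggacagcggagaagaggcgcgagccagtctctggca

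The words searched on both strands were the AP-1 site TGAGTCA, to which Jun dimers bind, the cyclic AMP response element TGACGTCA, to which Jun-Atf dimers bind, its shorter core TGACG, and the composite C/EBP-ATF word TGATGCAA. Any full element also contains the shorter core. Dclk1 had the AP-1 word from -236 to -230 relative to the start, which 4.63% of the 33469 RefSeq rat promoters of the same length also hold. It also had the shorter core, read on the opposite strand as CGTCA, from -38 to -34. Gadd45a held the core on the opposite strand from -128 to -124, and Tubb2b from -136 to -132. The core is a common word, present in 21.2% of all promoters. The full response element (1.83% of all promoters) and the composite word (0.795%) were in none of the 4 windows, and Chl1 had no match to any of the 4 words. Base composition differed between the windows: GC content was 64.3% for Tubb2b, 60.3% for Gadd45a, 56.0% for Dclk1 and 52.3% for Chl1, against a median of 51.7% over all promoters. These matches describe letters in the windows and are not binding data.

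One library, P32 hearing replicate 3, was unlike the rest. Its median correlation with the other libraries was 0.949 on log2 CPM across genes (counts per 1000000 reads, scaled by TMM), against at least 0.977 in each of the other 11. Its share of reads from mitochondrial genes was 3.16% (1.30% to 1.64% elsewhere) and from haemoglobin 0.237% (0.0378% to 0.113% elsewhere). It is the library that the authors' normalized table leaves out, and the main results that it moves are also given without it.

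Both injury transcription factors were higher in deafened than in hearing ganglia at both ages, Atf3 far more than Jun. Atf3 (ENSRNOG00000003745), a stress-induced factor nearly silent in intact neurons, stood at 3.47, 4.47 and 2.83 CPM in the P32 hearing libraries and at 14.6, 11.4 and 15.3 CPM in the P32 deafened ones. At P60 it had 3.99, 4.49 and 3.79 CPM in hearing and 41.0, 63.2 and 60.5 CPM in deafened libraries. The 6 hearing libraries thus lay together at the bottom, the P32 deafened libraries lay above all of them, and the P60 deafened libraries above both, with no overlap between these 3 levels. The difference between deafened and hearing was 3.78-fold at P32 (log2 fold change 1.92 ± 0.21 SE) and 13.4-fold at P60 (3.74 ± 0.22 SE, n = 3 libraries a group), and the P60 deafened mean was 3.99 times the P32 deafened one. These were the largest values of the 7 genes in each of these 3 contrasts.

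Jun (ENSRNOG00000026293), the partner of Atf3 and the main target of JNK, stood in hearing ganglia at 47.0, 45.8 and 38.0 CPM at P32 and 50.9, 48.4 and 45.3 CPM at P60. Deafened libraries had 65.0, 64.2 and 63.6 CPM at P32 and 86.1, 108 and 64.4 CPM at P60. All deafened libraries lay above all hearing ones, but the 2 deafened ages overlapped, since P60 deafened replicate 3 was at the level of the P32 deafened libraries. The log2 difference between deafened and hearing was 0.56 ± 0.17 SE at P32 and 0.84 ± 0.17 SE at P60, a 1.47-fold and a 1.79-fold difference. Jun was the most variable gene of the 7 among the P60 deafened libraries, with a highest to lowest ratio of 1.68.

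Gadd45a (ENSRNOG00000005615) is a stress protein that binds cell cycle and DNA repair factors and is induced in axotomized sensory neurons. With all libraries kept, its deafened and hearing ranges were separate at P60 alone. Its P32 libraries stood at 19.0, 17.0 and 22.1 CPM in hearing and 23.0, 20.6 and 19.8 CPM in deafened rats, ranges that overlapped. The overlap came from P32 hearing replicate 3, and without it the P32 groups did not overlap. At P60 the hearing libraries had 14.7, 16.4 and 16.6 CPM and the deafened ones 34.2, 52.2 and 41.2 CPM, above every other library of the study. The log2 difference was 0.13 ± 0.16 SE at P32, 0.22 without P32 hearing replicate 3, and 1.42 ± 0.16 SE at P60, where it was 2.68-fold.

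Gap43 (ENSRNOG00000001528), a membrane protein of growth cones that is also made by repair Schwann cells, was counted with 166 to 593 reads a library. It had 7.02, 9.05 and 11.1 CPM in P32 hearing and 13.4, 12.3 and 10.8 CPM in P32 deafened libraries. At P60 the values were 6.97, 8.18 and 7.33 CPM in hearing and 19.7, 19.5 and 19.0 CPM in deafened ganglia. The P32 groups overlapped through hearing replicate 3, the highest of its group, and deafened replicate 3, the lowest of its own. The P60 deafened libraries lay above the other 9, with a highest to lowest ratio of 1.04. Deafened and hearing differed by 0.43 ± 0.16 SE on the log2 scale at P32 and by 1.37 ± 0.17 SE at P60 (2.58-fold).

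Tubb2b (ENSRNOG00000017445), a beta-tubulin of growing neurites, had the smallest P60 difference of the 7, and a lower level in hearing ganglia accompanied it. Its libraries stood at 51.2, 55.4 and 51.6 CPM in P32 hearing, 58.3, 50.5 and 50.8 CPM in P32 deafened and 56.1, 57.8 and 57.6 CPM in P60 deafened rats. The P60 hearing libraries, at 44.9, 39.2 and 32.9 CPM, were the group set apart, below all 9 others. The difference was 0.01 ± 0.12 SE at P32 and 0.55 ± 0.13 SE at P60 (1.47-fold), and between the deafened ages it was 0.10 ± 0.12 SE, all on the log2 scale. Between P32 and P60 its hearing mean went from 52.7 ± 2.30 to 39.0 ± 6.03 CPM (SD, n = 3), a larger distance than between the deafened means of 53.2 ± 4.47 and 57.2 ± 0.929 CPM. Tubb2b lies on chromosome 17 with its near copy Tubb2a, and reads could be shared between them.

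Dclk1 (ENSRNOG00000032922), a doublecortin-like kinase that binds microtubules and acts in axon and dendrite growth, was counted with 2437 to 10328 reads a library. Its P32 libraries were at 130.4, 116 and 182 CPM in hearing and 167, 163 and 173 CPM in deafened rats. Hearing replicate 3, at 1.48 times the mean of the other 2 hearing libraries, exceeded every P32 deafened library, and without it the groups did not overlap. At P60 the hearing libraries had 108, 118 and 104 CPM and the deafened ones 284, 339 and 346 CPM, above all 9 others. The log2 difference was 0.23 ± 0.16 SE at P32, 0.43 without hearing replicate 3, and 1.55 ± 0.16 SE at P60 (2.94-fold).

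Chl1 (ENSRNOG00000045771), the close homolog of the adhesion molecule L1 and a guide of neurite growth, showed the second largest P60 difference. P32 hearing libraries had 28.0, 34.4 and 67.3 CPM and P32 deafened ones 70.2, 71.1 and 78.5 CPM, so that the groups were separate by a narrow margin at hearing replicate 3, which was 2.16 times the mean of the other 2. At P60 the levels were 24.0, 26.2 and 23.3 CPM in hearing and 116, 144 and 181 CPM in deafened libraries. The P60 deafened group stood above the rest, the P32 deafened group next, and the 2 hearing groups lowest. Deafened and hearing means differed 1.70-fold at P32 (log2 fold change 0.77 ± 0.27 SE) and by 2.59 ± 0.28 SE on the log2 scale at P60. Leaving out P32 hearing replicate 3 moved the P32 value to 1.21 and the P60 value to 2.56.

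**Figure D1:**
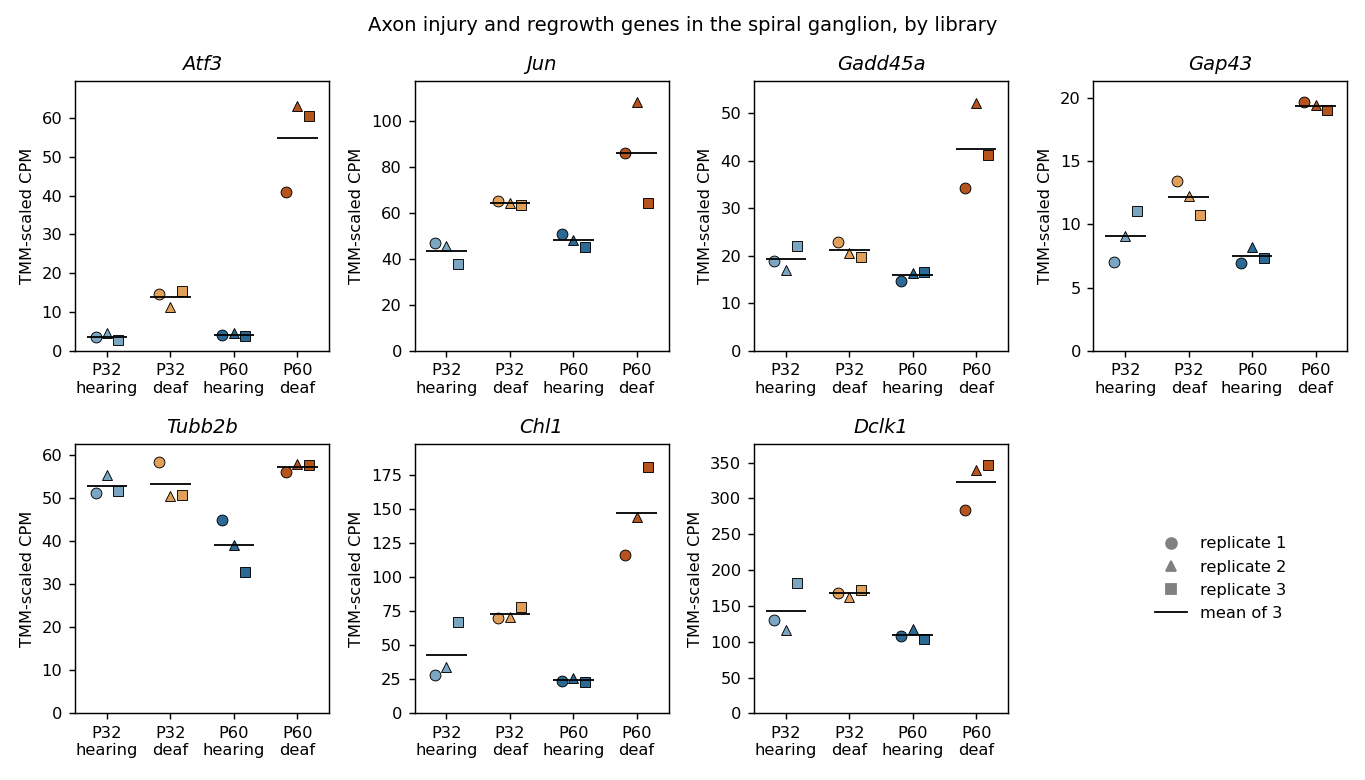
TMM-scaled CPM (vertical axes, from 0) of the 7 genes in each of the 12 libraries, by group, where circles, triangles and squares are replicates 1, 2 and 3 and bars are means of 3. The P60 deafened libraries of Atf3 (41.0 to 63.2 CPM) and Chl1 (116 to 181 CPM) lie above all others, while in Tubb2b the P60 hearing libraries (32.9 to 44.9 CPM) are the group set apart.

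Counted over the 7 genes, deafened and hearing libraries were separate in all of them at P60 and in fewer at P32. At P60 all 3 deafened libraries lay above all 3 hearing libraries in 7 of 7 genes, which held for 17.4% of all genes tested. At P32 this was so for 3 of 7, Atf3, Jun and Chl1, against 11.3% of all genes. Without P32 hearing replicate 3 the P32 groups were also separate for Gadd45a, Gap43 and Dclk1, and not for Tubb2b. With fewer libraries such a separation is met more easily, and its share over all genes was not counted. In 5 of 7 the P60 deafened libraries also lay above the other 9 libraries (4.18% of all genes), the exceptions being Jun and Tubb2b. The genes were chosen for these differences, so the counts describe them and nothing is read from their size. The median log2 difference of the 7 was 0.43 at P32 and 1.42 at P60, beside -0.02 and 0.02 over all genes.

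The distance between the ages was not alike in the 7 genes. The P60 difference exceeded the P32 difference by 1.82 ± 0.29 SE on the log2 scale for Atf3 and by 1.82 ± 0.38 SE for Chl1, which became 1.35 without P32 hearing replicate 3. For Gadd45a (1.29 ± 0.23 SE) and Gap43 (0.94 ± 0.23 SE) it was intermediate, as for Dclk1, whose P60 ratio of deafened to hearing was 2.50 times its P32 ratio, and for Tubb2b (0.54 ± 0.18 SE) and Jun (0.28 ± 0.23 SE) it was smallest. Among deafened ganglia alone, Atf3 was 3.99-fold higher at P60 than at P32. The log2 difference between these 2 groups was 1.01 ± 0.16 SE for Gadd45a, 1.01 ± 0.27 SE for Chl1 and 0.10 ± 0.12 SE for Tubb2b.

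**Figure D2:**
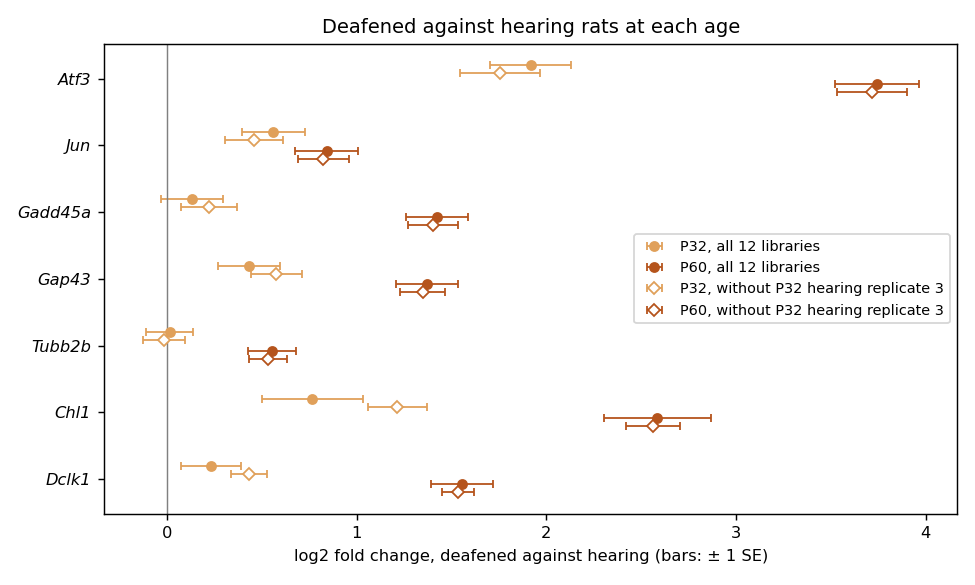
Log2 fold change of the 7 genes, deafened against hearing (horizontal axis, bars are 1 SE), at P32 (light) and P60 (dark), with all 12 libraries (filled circles) and without P32 hearing replicate 3 (open diamonds). At P60 the 2 fits nearly coincide, and at P32 Chl1 goes from 0.77 to 1.21 and Dclk1 from 0.23 to 0.43.

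The hearing ganglia allow a comparison of libraries in which the genes were not seen to rise. They are also the controls of the contrasts that chose the genes, so low hearing values favoured that choice. The p-values of the 7 genes below are therefore a description. Between P32 and P60 in hearing rats 0 of the 7 genes passed edgeR's threshold (adjusted p under 0.05 over all genes). In that comparison 13 of 17789 genes did (0.0112% of genes higher and 0.0618% lower at P60), while 1814 had an unadjusted p under 0.05 and DESeq2 called 150. Chl1 was 1.76-fold lower at P60 (log2 fold change -0.81 ± 0.27 SE, edgeR adjusted p = 0.445), and the fold change was -0.35 without P32 hearing replicate 3. Tubb2b was at -0.44 ± 0.13 SE (edgeR adjusted p = 0.355), with -0.45 without that library. Dclk1 (-0.38), Gadd45a (-0.28) and Gap43 (-0.26) had edgeR adjusted p between 0.448 and 0.462, and Atf3 (0.17) and Jun (0.14) 0.667 and 0.639. Without P32 hearing replicate 3 the log2 fold changes were -0.16 for Dclk1, -0.17 for Gadd45a, -0.10 for Gap43, 0.04 for Atf3 and 0.06 for Jun, all closer to 0. A p past the threshold was not reached, which does not show that the levels were the same.

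Close relatives of the 7 genes, fixed by name, were compared next. Among AP-1 factors, Fos (ENSRNOG00000008015), the usual partner of Jun, passed the test at both ages. It had 6.83, 6.78 and 4.74 CPM in P32 hearing and 11.8, 13.6 and 12.2 CPM in P32 deafened libraries, and 8.65, 9.51 and 8.52 CPM against 18.5, 26.3 and 21.2 CPM at P60. Deafened libraries were above all hearing ones at each age (log2 fold change 1.03 ± 0.17 SE, edgeR adjusted p = 0.0347 at P32, and 1.31 ± 0.17 SE, edgeR adjusted p = 0.00179 at P60). The P32 call was kept in 2 of 12 fits with 1 library left out and the P60 call in 12 of 12. Junb (0.76 ± 0.36 SE at P60, edgeR adjusted p = 0.347), Jund (-0.05, 0.958), Jdp2 (-0.25, 0.608) and Atf4 (-0.09, 0.806) did not pass.

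Of the other GADD45 proteins, Gadd45b, which responds to cytokines and JNK signalling, had 10.3 ± 0.737 CPM in P60 hearing and 17.8 ± 4.89 CPM in P60 deafened libraries (SD, n = 3). The gene did not pass with all libraries (log2 fold change 0.80 ± 0.22 SE, edgeR adjusted p = 0.0711) and did without P32 hearing replicate 3 (0.78, edgeR adjusted p = 0.00554). Gadd45g (0.50, edgeR adjusted p = 0.545) did not. Basp1, a growth cone protein that shares functions with Gap43, was at 0.36 (edgeR adjusted p = 0.582).

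The relatives of Tubb2b and Dclk1 had log2 fold changes below 0 at P60 in 4 of 5 cases, with none past the threshold with all libraries. Tubb2a, the near copy of Tubb2b, stood at 79.0, 74.6 and 76.5 CPM in hearing and 72.4, 63.1 and 64.0 CPM in deafened libraries (log2 fold change -0.21 ± 0.13 SE, edgeR adjusted p = 0.525). Tubb3, the neuronal beta-tubulin, was at -0.62 ± 0.19 SE (edgeR adjusted p = 0.115, and 0.00696 without P32 hearing replicate 3). Dcx, doublecortin itself, was at -0.60 ± 0.22 SE (edgeR adjusted p = 0.184, and 0.000543 without that library), and Dclk3 at -0.32 (0.54). Dclk2 was at 0.10 (edgeR adjusted p = 0.895). Tubb3 and Dcx thus had the sign of most neuronal markers described further on, and Tubb2b and Dclk1, chosen for their rise, the other. Tubb3 is itself among those markers, so its sign is no separate observation.

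In the L1 family of adhesion molecules the other members also lay apart from Chl1. L1cam had a P60 log2 fold change of -0.57 ± 0.34 SE (edgeR adjusted p = 0.502) and Nfasc of -0.40 (0.543), and both passed as lower without P32 hearing replicate 3 (0.0123 and 0.0442). Nrcam was at 0.19 (edgeR adjusted p = 0.763). Differences between a gene and its relatives were not tested. Of 3 further genes of the programme fixed by name, none passed with all libraries. Sox11, an injury-induced factor, was at 1.29 CPM or less in every group mean, Stmn2 was at -0.64 (edgeR adjusted p = 0.134, and 0.0273 without P32 hearing replicate 3), and Map3k12, which encodes DLK, at -0.11 (0.882).

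**Figure D3:**
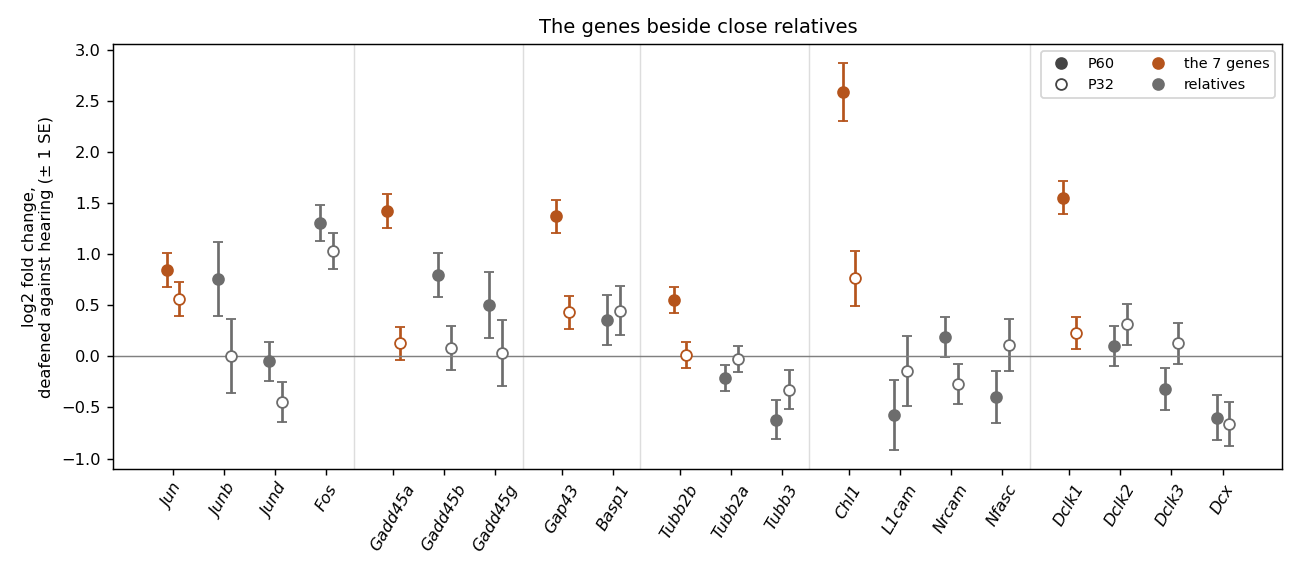
Log2 fold change, deafened against hearing (vertical axis, bars are 1 SE), of 6 of the 7 genes (orange) and their close relatives (grey) at P60 (filled) and P32 (open), in panels by family. Chl1 is at 2.59 at P60 beside L1cam at -0.57, and Tubb2b at 0.55 beside Tubb2a at -0.21.

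Beyond these relatives, 7 lists of the axon injury pathway were drawn up, with the 7 genes left out: injury transcription factors, growth cone proteins, tubulins and microtubule proteins, adhesion and guidance molecules, DLK and JNK signalling, GADD45 and growth arrest genes, and injury peptides, cytokines and receptors. The lists hold 183 genes, of which 175 were tested. At P32, 3 were higher in deafened ganglia (1.71%) and 0 lower, beside 0.225% and 0.0899% of all genes. The 3 were Fos, Dusp10 and Nrp1, calls kept in 2, 10 and 2 of 12 fits with 1 library left out. At P60, 16 were higher (9.14%) and 4 lower (2.29%), beside 2.24% and 1.01% of all genes, with a median log2 fold change of 0.09 beside 0.02 over all genes. Without P32 hearing replicate 3 the P60 counts were 37 higher and 36 lower, and the P32 counts 12 and 10. The total of 20 at P60 fell to 8 or 9 without P60 hearing replicate 1 or 3 or P60 deafened replicate 2, and to 12 without P60 deafened replicate 3. Most of the listed genes passed no threshold with all libraries. The lists were drawn up with results of these data known, and their shares are a description. Without P32 hearing replicate 3, 8.84% of all genes were higher and 9.55% lower at P60, and 1.55% and 2.0% at P32.

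In DLK and JNK signalling, 2 phosphatases rose and a kinase and a scaffold fell. Dusp10, a phosphatase that switches off JNK and p38, rose at both ages. It had 6.64, 6.80 and 6.43 CPM in P32 hearing and 13.0, 14.2 and 13.9 CPM in P32 deafened libraries (log2 fold change 1.04 ± 0.14 SE, edgeR adjusted p = 0.00945), and 6.55, 6.40 and 7.03 CPM against 31.1, 42.0 and 32.2 CPM at P60 (2.40 ± 0.14 SE, edgeR adjusted p = 7.89e-06). The 6 hearing libraries lay together, as for Atf3, and the P60 deafened libraries lay above the P32 deafened ones (edgeR adjusted p = 0.00234), a comparison in which 0.174% of all genes were higher. Dusp6, a phosphatase of ERK, rose by 0.66 ± 0.12 SE at P60 (edgeR adjusted p = 0.012). Map3k13, the leucine zipper kinase closest to DLK, fell by 0.90 on the log2 scale (edgeR adjusted p = 0.0384) and the JNK scaffold Mapk8ip2 by 0.96 (edgeR adjusted p = 0.0157). The calls of Dusp6, Map3k13 and Mapk8ip2 were kept in 9, 2 and 8 of 12 fits with 1 library left out. The list had 2 genes higher and 7 lower at P60 without P32 hearing replicate 3. Over the 20 genes of this list the P60 median was -0.08.

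The list of injury peptides, cytokines and receptors had the most rises at P60, 6 of 26 with 0 falls and a median of 0.52, and 13 rises and 3 falls without P32 hearing replicate 3. Among them were Socs3, which dampens cytokine signalling through Stat3 (log2 fold change 1.69 ± 0.20 SE, edgeR adjusted p = 0.00105), the oncostatin M receptor Osmr (1.65 ± 0.24 SE, 0.00343), the TWEAK receptor Tnfrsf12a (0.88 ± 0.16 SE, 0.0116), and the secreted factors Lif and Bdnf. Socs3 had 2.18, 2.18 and 2.60 CPM in P60 hearing and 6.90, 8.37 and 7.24 CPM in P60 deafened libraries, with no overlap. With 1 library left out, the Tnfrsf12a call was kept in 10 of 12 fits and those of Socs3 and Osmr in 12. Among 27 transcription factors Fos and Stat3, the factor activated by such cytokines, rose at P60. Stat3 went from 122 ± 9.87 to 226 ± 29.3 CPM (SD, n = 3), with an edgeR adjusted p of 0.014, which was kept in 8 of 12 fits with 1 library left out. That list had 5 genes higher and 1 lower without P32 hearing replicate 3.

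Among 27 growth cone genes 3 rose at P60: Hspb1, a small heat shock protein of regenerating neurons (8.22 ± 0.514 to 23.3 ± 7.70 CPM, edgeR adjusted p = 0.00279), the hyaluronan receptor Cd44 (38.6 ± 6.85 to 115 ± 8.19 CPM, 0.00487) and Marcks, an actin-binding membrane protein (156 ± 10.3 to 258 ± 31.7 CPM, 0.0125). With 1 library left out, the Marcks call was kept in 8 of 12 fits and those of Hspb1 and Cd44 in 12. Of 23 tubulin and microtubule genes, Tubb6 alone passed (24.9 ± 2.80 to 38.0 ± 2.75 CPM, edgeR adjusted p = 0.0373, kept in 3 of 12 fits). That list had a median of -0.23, and without P32 hearing replicate 3 it had 3 rises and 11 falls. Of 30 adhesion and guidance genes Nrp1, a semaphorin receptor, rose (0.44 ± 0.11 SE, edgeR adjusted p = 0.0448, kept in 1 of 12 fits). The ephrin receptor Epha4 (223 ± 9.09 to 142 ± 6.27 CPM, edgeR adjusted p = 0.0222) and the contactin Cntn5 (51.1 ± 3.58 to 28.1 ± 3.13 CPM, 0.0427) fell, calls kept in 4 and 3 of 12 fits. In the GADD45 and growth arrest list Plk2, a stress-induced polo-like kinase, rose from 16.3 ± 0.603 to 41.5 ± 2.85 CPM (edgeR adjusted p = 0.000118), the 1 call among 22 genes. With that library left out, the growth cone list had 7 genes higher and 4 lower, the adhesion and guidance list 4 and 9, and the GADD45 list 3 and 1.

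**Figure D4:**
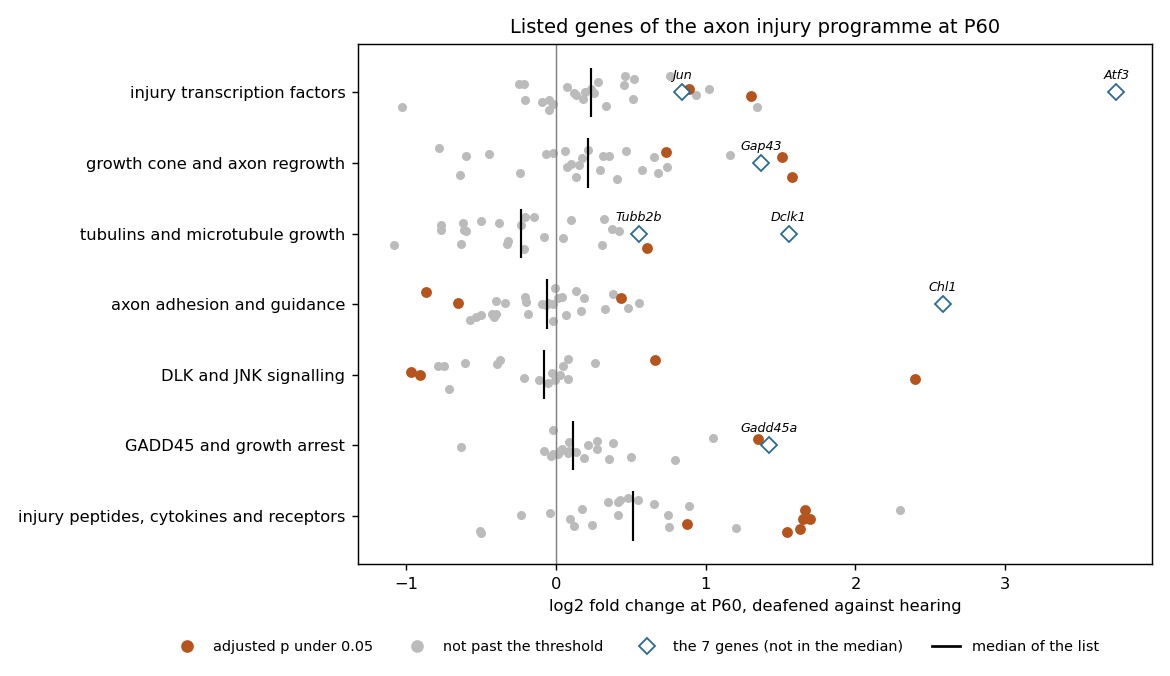
Log2 fold change at P60, deafened against hearing (horizontal axis), of each tested gene of the 7 lists (rows), with genes past an adjusted p of 0.05 in orange, the 7 chosen genes as open diamonds and the list's median, without them, as a bar. Atf3 (3.74) and Chl1 (2.59) lie beyond every other gene of their lists, while the medians run from -0.23 to 0.52.

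The 7 genes did not share a single pattern. Likeness was measured as the root mean square difference of log2 CPM over the 12 libraries, each gene centred on its own mean, with 0 for identical patterns. The closest pair was Gadd45a and Dclk1 (0.150), followed by Gap43 and Dclk1 (0.186) and Gadd45a and Gap43 (0.220). Atf3 and Tubb2b were the farthest apart (1.46).

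Searched against the other genes, 14068 in all, Atf3 was most like Lgals3 (0.385), a galectin of phagocytes, and Gpnmb (0.460), a glycoprotein of lysosome-rich macrophages, followed by RT1.M2 (0.499). Chl1 was nearest to the interferon-induced Ifitm1 (0.270), Fcrl2 (0.287) and Arl11 (0.306). Jun was nearest to Tnfrsf1a (0.113), a receptor for tumour necrosis factor, then Sbno2 (0.119) and Grik3 (0.138). Gadd45a was nearest to Gfap (0.147), a glial intermediate filament not confined to Schwann cells, then Pdlim4 (0.158) and the chemokine Cxcl14 (0.174). Dclk1 was nearest to Cxcl14 (0.154), Klhl6 (0.164) and Gfap (0.179), and Gap43 to Klhl6 (0.171), Ugt1a7c (0.195) and Fcer1g (0.198). Tubb2b was nearest to Vash1 (0.127), which trims tubulin, and also near Slc29a1 (0.135). Nearest genes depended on the outlying library: without P32 hearing replicate 3, 2 of the 3 were the same for Atf3 (Lgals3 and Gpnmb), 0 of 3 for Gap43, and 1 of 3 for each of the other 5.

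Markers of cell types moved with the groups in which the 7 genes were high. The macrophage list had 13 of 20 genes higher at P60, with a median log2 fold change of 1.06, and 4 at P32, beside 2.24% and 0.225% of all genes. The counts without P32 hearing replicate 3 were 18 at P60 and 16 at P32, with 1 gene lower at each age. The summed level of the 20 markers did not follow these counts. It was 2467 to 5679 CPM in P32 hearing, 2010 to 2140 CPM in P32 deafened, 2690 to 2730 CPM in P60 hearing and 2287 to 2606 CPM in P60 deafened libraries, lower in deafened ones at both ages. Spp1, a secreted protein that is not confined to macrophages, made up 75.5% of that sum. The sum of the other markers was 388 to 575 CPM in P32 hearing, 666 to 695 CPM in P32 deafened, 416 to 535 CPM in P60 hearing and 909 to 1122 CPM in P60 deafened libraries. The order of the groups thus turned with the choice to leave out Spp1, which was made after its values were seen. Of the repair Schwann cell list, with Jun and Gap43 left out, 6 of 18 genes were higher at P60 (Gfap, Btc, Runx2, Sox2, Bdnf and Fgf5) and 0 lower, and 8 and 3 without P32 hearing replicate 3. Gfap, 73.6% of that sum, went from 1398 ± 139 CPM in P60 hearing to 3385 ± 350 CPM in P60 deafened ganglia (log2 fold change 1.28 ± 0.14 SE, edgeR adjusted p = 0.000591), and the growth factor betacellulin, Btc, from 1.99 ± 0.330 to 13.7 ± 0.555 CPM (2.78 ± 0.21 SE, edgeR adjusted p = 2.82e-05). Without Gfap the sum was 728 to 784 CPM in P60 hearing and 729 to 801 CPM in P60 deafened libraries, so the rise of the sum lay in Gfap. Gfap is also on the glial list, and which cells made it was not tested.

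At P60 neuronal markers were lower while Gap43, Tubb2b, Dclk1 and Chl1, which neurons also make, were higher. Their sum, over 17 genes without Gap43, was 8557 to 9336 CPM in P60 hearing and 4995 to 6359 CPM in P60 deafened libraries, and 6683 to 9574 against 6188 to 6424 CPM at P32. At P60, 3 of 17 passed as lower and 0 as higher (median -0.62), and 6 of 19 markers of spiral ganglion neurons passed as lower (median -0.67). Of these Snap25, a synaptic fusion protein, fell by 0.83 on the log2 scale (edgeR adjusted p = 0.0125) and the glutamate transporter Slc17a7 by 1.10 (edgeR adjusted p = 0.00161). The calls of Snap25 and Slc17a7 were kept in 9 and 12 of 12 fits with 1 library left out. At P32, 1 of the 19 markers of spiral ganglion neurons, Calb2, passed as lower, a call kept in 3 of 12 fits with 1 library left out. Without P32 hearing replicate 3, 13 of the 17 neuronal markers passed as lower at P60 and 7 at P32. For markers of spiral ganglion neurons it was 14 of the 19 at P60 (1 higher) and 9 at P32 (0 higher). Myelinating Schwann cell markers had 0 of 15 past the threshold in either direction at P60 (median -0.14), and 3 lower without that library. Of 11 glial markers Fabp7 and Gfap were higher at P60, calls kept in 7 and 12 of 12 fits. Fibroblast, endothelial and mural, hair cell, proliferating cell and central glia markers had 0 genes past the threshold at either age with all libraries. Without P32 hearing replicate 3, 4 glial, 4 central glia, 3 fibroblast and 2 proliferating cell markers were higher at P60 and 1 hair cell marker lower. Central glia markers summed to 1551 to 2561 CPM in P32 hearing and 1762 to 1927 CPM in P32 deafened libraries. At P60 their sum was 1401 to 1609 CPM in hearing and 1672 to 1974 CPM in deafened libraries. The hair cell gene Pou4f3 had a mean of at most 0.382 CPM in each group, in tissue from which the organ of Corti had been dissected. Otof, another hair cell gene, had a mean of 3.45 CPM in P32 hearing and 2.69 CPM in P32 deafened libraries. At P60 its means were 3.18 CPM in hearing and 1.97 CPM in deafened libraries. Hair cell markers summed to 49.5 to 50.8 CPM in P32 hearing and 39.9 to 50.5 CPM in P32 deafened libraries. At P60 this sum was 51.6 to 56.2 CPM in hearing and 40.2 to 42.8 CPM in deafened libraries. Cib2 made up 76.4% of it, and which cells made it was not tested.

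Atf3, Jun and Fos also respond to handling of tissue. Over the 11 tested genes of a dissection stress list, Fos included and Atf3 and Jun left out, the sum was 255 to 304 CPM in P32 hearing, 271 to 294 CPM in P32 deafened, 309 to 321 CPM in P60 hearing and 321 to 387 CPM in P60 deafened libraries. The highest, P60 deafened replicate 2, was also the highest P60 deafened library for Atf3, Jun, Gadd45a and Tubb2b. Hsph1 made up 44.9% of that sum. Without Hsph1 the sum was 137 to 171 CPM in P32 hearing and 155 to 171 CPM in P32 deafened libraries. At P60 it was 163 to 166 CPM in hearing and 180 to 226 CPM in deafened libraries, which did not overlap. Fos was the 1 gene of this list past the threshold at P60 and at P32, and 3 were higher at P60 without P32 hearing replicate 3. The part of cell makeup and of handling in the levels of the 7 genes was not tested.

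**Figure D5:**
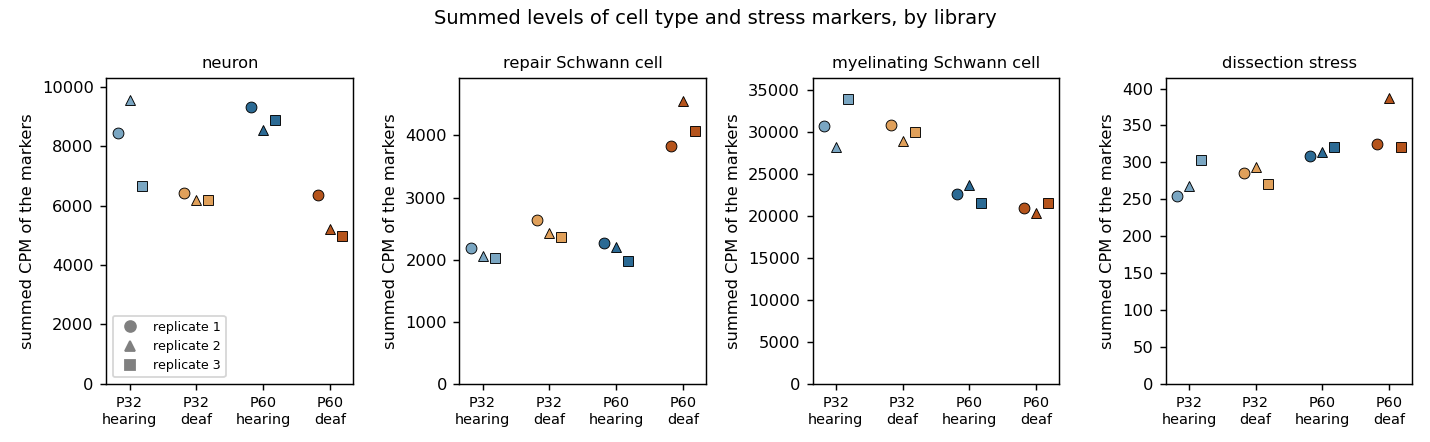
Summed CPM (vertical axes, from 0) of markers of neurons, repair Schwann cells and myelinating Schwann cells and of dissection stress genes in each of the 12 libraries, by group, with the 7 genes left out and circles, triangles and squares for replicates 1, 2 and 3. Neuronal markers are at 4995 to 6359 CPM in P60 deafened against 8557 to 9336 CPM in P60 hearing libraries, and dissection stress genes are highest in P60 deafened replicate 2.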

How the data were processed

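Total RNA of 12 spiral ganglion libraries was depleted of ribosomal RNA and sequenced on 3 lanes each, per the labels. The authors deposited raw read counts per Ensembl gene ID (32883 IDs, 12 libraries), and a table of normalized signal per symbol (21829 symbols, 11 libraries), which the authors made by dividing counts by 1 size factor a library. It served to pair symbols with IDs: its values give whole reads within 0.1, and each symbol matched exactly 1 ID. Per the submitters' processing notes, featureCounts, Subread 1.6.3, SAMtools and STAR 2.7.0b were among the tools, with Trimmomatic, bcl2fastq 2.20 and DESeq2. The genome build, annotation and use of strand are not given in the sources used, so reads of overlapping or antisense genes cannot be told apart.

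Counts were analysed with edgeR 4.0.16 in R 4.3.3: filterByExpr with the groups (17789 genes), TMM, 1 mean per group over 12 libraries, the quasi-likelihood test, two-sided, and Benjamini-Hochberg adjustment over all genes (threshold 0.05). All groups share 1 estimate of the spread. SE is the log2 fold change divided by the square root of F. CPM are TMM-scaled, as mean ± SD, and log2 CPM used a prior count of 2. Alternatives were RLE scaling, no filter, the compared groups alone, a replicate block, DESeq2 1.42.0 and leaving out each library. The fit was tested on simulated data. The 7 genes, the gene and marker lists (334 entries in 19 lists, from general knowledge) and the tests were chosen with earlier results of these data known. Named genes are the 7, their relatives fixed by name, up to 4 genes per list with the smallest adjusted p at P60 and 2 at P32 among those past the threshold, defining markers and the 3 nearest genes (mean of at least 1 CPM in a group). Lif, Bdnf and Sox2 fall outside that rule and are named to complete a count. A few genes covered by this rule are left unreported. Listed genes with no matching row, such as Sprr1a, Npy and Il6, were not analysed here. Figures were made with matplotlib 3.10.9 in Python 3.11.15.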

Additional observations from a re-analysis of the deposited data

How the results depend on the processing

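Of 588 values of the 7 genes under the alternatives (7 genes, the comparisons, each setting), 582 were counted as unmoved and 0 of the called values changed sign. For age in hearing, unmoved meant the same sign and the same side of the threshold. In the other comparisons it meant a move smaller than the spread between replicates. Chl1 in hearing thus counted as unmoved although it went from -0.81 to -0.35 without P32 hearing replicate 3. At P60 the difference was above 0 in 119 of 119. The 7 genes were chosen for this rise and every setting refits the same libraries, so that count is a description. The 6 counted as moved included Jun (0.06) and Gadd45a (1.09) in the difference between ages without P60 deafened replicate 2. The others were Chl1 (1.21 at P32, 1.35 for the difference between ages) and Dclk1 (0.43 and 1.10) without P32 hearing replicate 3.

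Counts over all genes moved far more. The main counts were 56 at P32 (40 higher, 16 lower), 578 at P60 (399 and 179), 13 for age in hearing, 49 for age in deafened and 0 for the difference between ages (805 at an unadjusted p under 0.05). Fitting only the groups compared gave 0, 1940 (972 and 968), 1 and 208 for the first 4. DESeq2 gave 429 (230 and 199), 1249 (726 and 523), 150, 220 and 24. With no filter, age in hearing gave 21 and the difference between ages 2. Leaving out 1 library gave 5 to 641, 111 to 3321, 1 to 41, 6 to 557 and 0 to 14, the highest each time without P32 hearing replicate 3 (279 higher and 362 lower at P32, 1596 and 1725 at P60). Listed genes numbered 3 at P32 and 20 at P60, with 0 and 58 for only the groups compared, 14 and 38 by DESeq2, and 0 to 22 and 8 to 73 with 1 library left out. Depth limits Atf3 most, with 52 reads in its lowest library.

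The replicate block gave 63, 727, 11, 46 and 1 for the 5 counts, and 2 and 27 for the listed genes. The labels do not say that a number marks a shared litter or day. Over 18 pairs of same-numbered libraries from 2 groups the correlation of deviations was -0.03 to 0.34 (median 0.07, against -0.03 for other numbers), with 6 over 0.1. All 3 pairs of P32 hearing and P60 deafened libraries were over 0.1, and in no other pair of groups were all 3. Replicate 2 also had the most counted reads in each group. These values do not settle whether a number marks a shared factor. The main fit treats the libraries as sharing only a number.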
